A study of Homo sapiens with 12 samples.

Results

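The genes that supply DNA precursors were followed in HCT116, a human line from a colorectal carcinoma that keeps functional p53. They are the 8 genes RRM1, RRM2, RRM2B, TYMS, TK1, DCK, DUT and DTYMK, taken by name from 23195 listed genes, and all 8 were listed in each of the 4 deposited comparison tables. The study used polyA RNA from 12 libraries in 4 groups of 3 replicates. In the siControl DMSO group, HCT116 cells were transfected with siControl and received the solvent DMSO, and in the siControl Nutlin-3a group they received 10 µM Nutlin-3a, which blocks MDM2 and so activates p53. The siRFX7 DMSO and siRFX7 Nutlin-3a groups were transfected with siRNA against the transcription factor RFX7 (how many siRNAs is not given in the sources used here) and treated likewise, and the treatment lasted 24 h in every group. All 4 groups are 1 cell line, and the labels do not say whether replicates came from separate cultures, so p-values measure the spread between these libraries, which may be technical.

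Deoxynucleotides are made by ribonucleotide reductase, which joins a large catalytic subunit, RRM1, to a small subunit that holds the tyrosyl radical. RRM2 is the small subunit made for S phase and its gene is active in cycling cells, while RRM2B is a small subunit induced by p53 that serves DNA repair and mitochondrial DNA in cells that do not divide. The thymidylate branch makes dTTP through TYMS and the salvage kinase TK1, DTYMK phosphorylates dTMP from both routes, DUT removes dUTP, and DCK salvages deoxycytidine and purine deoxynucleosides.

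Start site windows of RefSeq (GRCh38.p14, 300 bases around an annotated start, mostly upstream of it) were held for 7 of the 8 genes, with RRM2B the gene that has no entry. The CCAAT box, searched as CCAAT on both strands, is shown because RRM2 carries it in repeated copies. RRM2 has 2 windows, and in the more downstream one the copies begin at -123, -93 and -66 from the start. Its other window has a copy at -249, and DTYMK also has repeated copies, at -92 and -24. The sequences of these are not shown. Positions count from the RefSeq starts. For RRM2, TK1, TYMS and DUT these starts lie inside the GENCODE gene spans given below, so the sites do too. Each sequence reads along its gene with the box in capitals. The RRM2 copies lie on the plus strand of GRCh38 at chr2:10122604-10122633, chr2:10122634-10122663 and chr2:10122661-10122690, and the 2 copies of TK1 on the minus strand at chr17:78187112-78187141 and chr17:78187081-78187110, where the box reads on the other strand as ATTGG.
RRM2 at -123: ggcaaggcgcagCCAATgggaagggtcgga
RRM2 at -93: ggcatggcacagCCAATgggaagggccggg
RRM2 at -66: ggggcaccaaagCCAATgggaagggccggg
TK1 at -77: ggccgggcgctgATTGGccccatggcggcg
TK1 at -46: ggccggctcgtgATTGGccagcacgccgtg

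The 7 genes have 12 windows, 4 of them of DUT. A CCAAT box was found in 5 of the 12, in DTYMK, RRM1, RRM2 and TK1, and in 34.6% of all 35116 windows. The CHR element, searched as TTTGAA or TTCGAA on both strands, was found in 3 of the 12, in DTYMK, DUT and RRM1, and in 16.4% of all windows. An E2F word, searched as TTTCCCGC, TTTCGCGC, TTTGCCGC or TTTGGCGC on both strands, was found in 3 of the 12, in DCK, DUT and TYMS, and in 3.31% of all windows. It is shown for TYMS and DUT, with the word (read on the other strand for TYMS) in capitals. These stretches lie at chr18:657603-657632 and chr15:48332159-48332188 on the plus strand. The windows of TYMS, DUT and DCK held no CCAAT box. An E2F word of DCK at 21 from the start and a further one of DUT at -42 are not shown. A short word of the X-box, the site of RFX factors, searched as GTTGCC or GTTACC on both strands, was found in 0 of the 12 and in 17.7% of all windows.
TYMS at -39: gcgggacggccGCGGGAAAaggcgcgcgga
DUT at -27: gaaatttcggtTTTGGCGCgctccctgcgg

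The labels and the cells were checked first. RFX7 itself averaged 943.8 normalized counts under siControl and 184.6 under siRFX7 in DMSO, and 1332 and 301.5 in Nutlin-3a. MDM2, a p53 target, averaged 4705 and 6591 among DMSO cells, and 74982 and 64906 among Nutlin-3a cells. The 5 epithelial markers EPCAM, KRT8, KRT18, KRT19 and CDH1 were all listed, and 4 rose and EPCAM fell with Nutlin-3a under each siRNA in the authors' deposited tables. With siRFX7, 2 of them rose and 1 fell in DMSO, and 1 rose and 3 fell with Nutlin-3a present, in the authors' deposited tables, and KRT19 had an interaction of -0.67; their part in the results was not tested. By contrast, the leukocyte marker PTPRC, the endothelial marker PECAM1 and the hepatocyte marker ALB were not among the listed genes. The fibroblast marker COL1A1 rose with siRFX7, by 0.36 in DMSO and 0.52 in Nutlin-3a cells (log2) in the authors' deposited tables. Its part in the siRFX7 results was not tested. COL1A2, the other fibroblast marker, was listed in the Nutlin-3a comparisons only and so has no siRFX7 value. A normalized count is a read count divided by the library's size factor. The 4 sets of group means summed to between 25913653 and 27405545 over the 19393 genes listed in all 4 comparisons. Totals per library were not used here.

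RRM2, the S-phase small subunit (ENSG00000171848, GRCh38 chromosome 2 from 10120698 to 10131419, plus strand), was nearly lost with Nutlin-3a and fell further when RFX7 was also knocked down. It averaged 8707 ± 291 normalized counts under siControl and 5887 ± 199 under siRFX7 in DMSO (model SE, n = 3), and 265.9 ± 12.8 under siControl and 66.65 ± 5.20 under siRFX7 in Nutlin-3a. Both Nutlin-3a groups lie far below both DMSO groups, and the siRFX7 Nutlin-3a group is the lowest. The spread between replicates that the authors' model implies was 5.79% of the mean in siControl DMSO and 13.5% in siRFX7 Nutlin-3a, and every gap between the group means is wider than this spread.

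With Nutlin-3a, RRM2 fell by 5.03 on the log2 scale in siControl (standard error 0.08, 32.7-fold lower) in the authors' deposited table. In siRFX7 it fell by 6.46 (standard error 0.12, 88.3-fold lower) in the authors' deposited table. The DESeq2 adjusted p is listed as 0 in both. Of 10863 protein-coding genes whose mean count was at least 100, RRM2 had the 29th lowest log2 fold change in siControl and the 23rd lowest in siRFX7. In bulk RNA, fewer cells in S phase and less RRM2 RNA in each cell cannot be told apart.

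siRFX7 lowered RRM2 in both treatments. Relative to siControl, RRM2 in siRFX7 had a log2 fold change of -0.56 when the cells had DMSO (standard error 0.07, DESeq2 adjusted p 4.83e-15) in the authors' deposited table. In Nutlin-3a it was -2.00 (standard error 0.13, DESeq2 adjusted p 1.33e-48) in the authors' deposited table, a level 3.99-fold lower. Of the 10863 protein-coding genes, RRM2 had the 18th lowest siRFX7 change in Nutlin-3a and the 330th lowest in DMSO. The interaction, the Nutlin-3a log2 fold change in siRFX7 minus that in siControl, was -1.43 for RRM2 (standard error 0.15, 95% interval -1.72 to -1.14, z test adjusted p 4.04e-19).

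RRM2B, the p53-induced small subunit (ENSG00000048392, chromosome 8 from 102204502 to 102239118, minus strand), moved the other way from RRM2 in each of the 4 deposited comparisons. It averaged 2615 ± 86.6 normalized counts under siControl and 4961 ± 160 under siRFX7 in DMSO (model SE, n = 3), and 10503 ± 332 under siControl and 13674 ± 431 under siRFX7 in Nutlin-3a. The order of the 4 groups is the exact reverse of that of RRM2, and the implied spread between replicates was 5.46% to 5.74% of the mean.

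With Nutlin-3a, RRM2B rose by 2.01 (log2) in siControl (standard error 0.07, 4.02-fold, DESeq2 adjusted p 5.02e-200) in the authors' deposited table. In siRFX7 it rose by 1.46 (standard error 0.07, 2.76-fold, DESeq2 adjusted p 2.46e-110) in the authors' deposited table. Within DMSO, siRFX7 raised RRM2B by 0.92 (standard error 0.07, DESeq2 adjusted p 2.87e-41) in the authors' deposited table. Within Nutlin-3a it raised it by 0.38 (standard error 0.06, DESeq2 adjusted p 6.36e-08) in the authors' deposited table. RRM2B had the 137th highest siRFX7 change in DMSO of the 10863 protein-coding genes, and the 946th highest in Nutlin-3a. Its interaction was -0.54 (standard error 0.09, 95% interval -0.72 to -0.36, z test adjusted p 4.78e-07). The smaller Nutlin-3a rise in siRFX7 therefore went with a higher start in DMSO and a higher, not lower, end level. Both p53 targets used as label checks also had interactions below 0, with different end levels. CDKN1A, a cell cycle inhibitor, had 5493 normalized counts under siControl and 13389 under siRFX7 in DMSO, 121149 and 154897 in Nutlin-3a, and an interaction of -0.93. MDM2 had an interaction of -0.69 (z test adjusted p 1.9e-12) and, in Nutlin-3a, ended lower under siRFX7, at 64906 against 74982. The part of p53 activity in the RRM2B values was not tested.

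**Figure D1:**
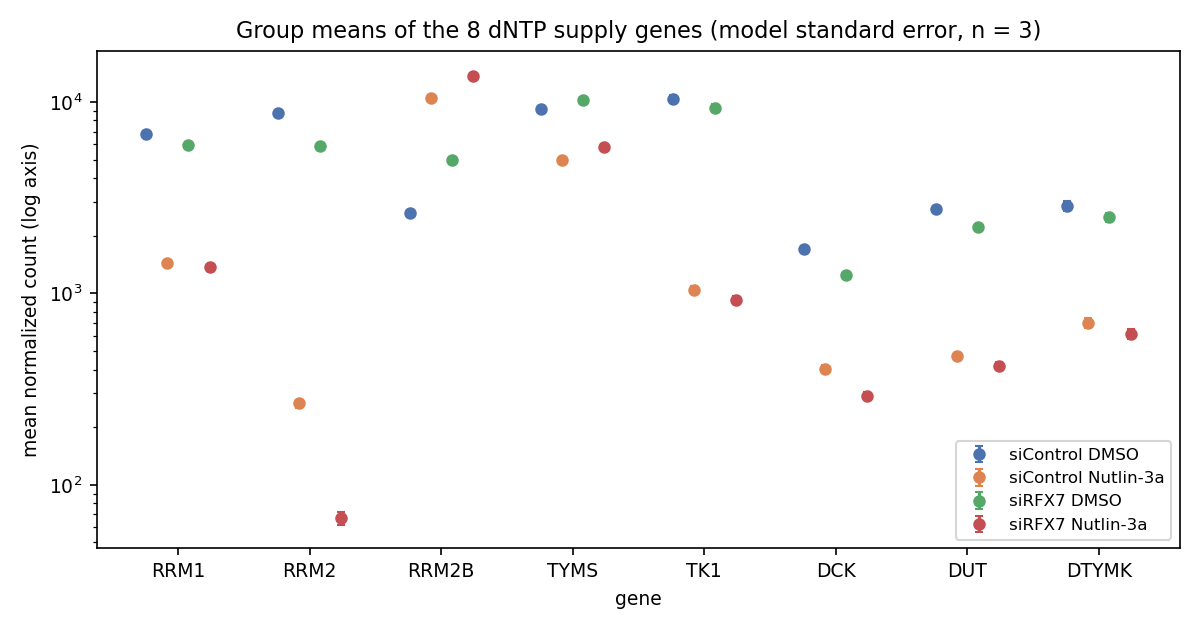
Mean normalized count (log axis) of each gene in the 4 groups; points are group means recovered from the deposited tables and bars are model standard errors (n = 3), often smaller than the point. RRM2 drops from 8707 in siControl DMSO to 66.65 in siRFX7 Nutlin-3a, RRM2B climbs from 2615 to 13674, and the other 6 genes are lower in both Nutlin-3a groups.

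The ratio of the small subunits turned over between the treatments. RRM2 had 3.33 counts for each RRM2B count under siControl and 1.19 under siRFX7 in DMSO, against 0.0253 and 0.00487 in Nutlin-3a. Both genes have merged exons of similar length in GENCODE 29, 5323 bases for RRM2 and 5548 for RRM2B. AC007240.1, on the same strand as RRM2 and averaging 6.56 normalized counts, shares 1077 exon bases with it, 20.2% of the RRM2 exons. How reads of shared bases were counted is not given in the sources used here, and their part in the RRM2 levels was not tested. Per kb of exon, RRM2B stood 37.9-fold above RRM2 in siControl Nutlin-3a and 197-fold above it in siRFX7 Nutlin-3a. In siControl DMSO it stood at 0.288 of RRM2, and in siRFX7 DMSO at 0.808. These ratios depend on the length used. The longest protein-coding transcripts have 3673 bases for RRM2 and 4931 for RRM2B. With those lengths RRM2B stood 29.4-fold and 153-fold above RRM2 in siControl and siRFX7 Nutlin-3a. In siControl and siRFX7 DMSO it then stood at 0.224 and 0.628 of RRM2.

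The change of this ratio does not depend on length. The log2 fold change of RRM2 minus that of RRM2B was -7.04 for the drug under siControl (standard error 0.11) and -7.93 under siRFX7 (standard error 0.14), computed from the authors' deposited tables. For the knockdown it was -1.49 (standard error 0.10) among DMSO cells and -2.38 (standard error 0.15) among Nutlin-3a cells, computed from the authors' deposited tables. These are 131.5-fold, 243.5-fold, 2.81-fold and 5.20-fold falls of the ratio. They are given without a test, since the pair was chosen for this contrast, and their errors treat the 2 genes as independent.

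Summed per kb, the 2 small subunits moved less with Nutlin-3a than either gene alone. With siRFX7 in Nutlin-3a cells the sum moved about as much as RRM2B. RRM2 plus RRM2B came to 2107 normalized counts per kb under siControl and 2000 under siRFX7 in DMSO, and to 1943 and 2477 in Nutlin-3a. RRM2B made up 22.4%, 44.7%, 97.4% and 99.5% of these sums. With the length of the longest protein-coding transcript in place of merged exons, a choice made after seeing the data, the sums were 2901, 2609, 2202 and 2791 and the RRM2B shares 18.3%, 38.6%, 96.7% and 99.3%. Which group had the highest sum therefore depends on the length used, siRFX7 Nutlin-3a with merged exons and siControl DMSO with the longest transcript.

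RRM1, the catalytic subunit (ENSG00000167325, chromosome 11 from 4094707 to 4138876, plus strand), fell with Nutlin-3a. It averaged 6810 ± 161 normalized counts under siControl and 5974 ± 142 under siRFX7 in DMSO (model SE, n = 3), and 1436 ± 39.1 under siControl and 1370 ± 37.6 under siRFX7 in Nutlin-3a. The groups separate by treatment, and the siRNA groups within a treatment lie close together. Its log2 fold change with Nutlin-3a was -2.25 in siControl and -2.12 in siRFX7 (standard error 0.05 each, DESeq2 adjusted p listed as 0) in the authors' deposited tables. The knockdown gave -0.19 among DMSO cells (standard error 0.05, DESeq2 adjusted p 0.00063) and -0.07 among Nutlin-3a cells (95% interval -0.18 to 0.04, DESeq2 adjusted p 0.411) in the authors' deposited tables. Small subunit transcripts per kb, RRM2 and RRM2B together, stood at 1.29 times RRM1 in siControl DMSO and 1.40 times it in siRFX7 DMSO, and at 5.65 and 7.55 times in the Nutlin-3a groups. With the longest protein-coding transcript as the length, they stood at 1.31 and 1.34 times RRM1 in DMSO (siControl then siRFX7). In Nutlin-3a they then stood at 4.72 and 6.27 times it.

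**Figure D2:**
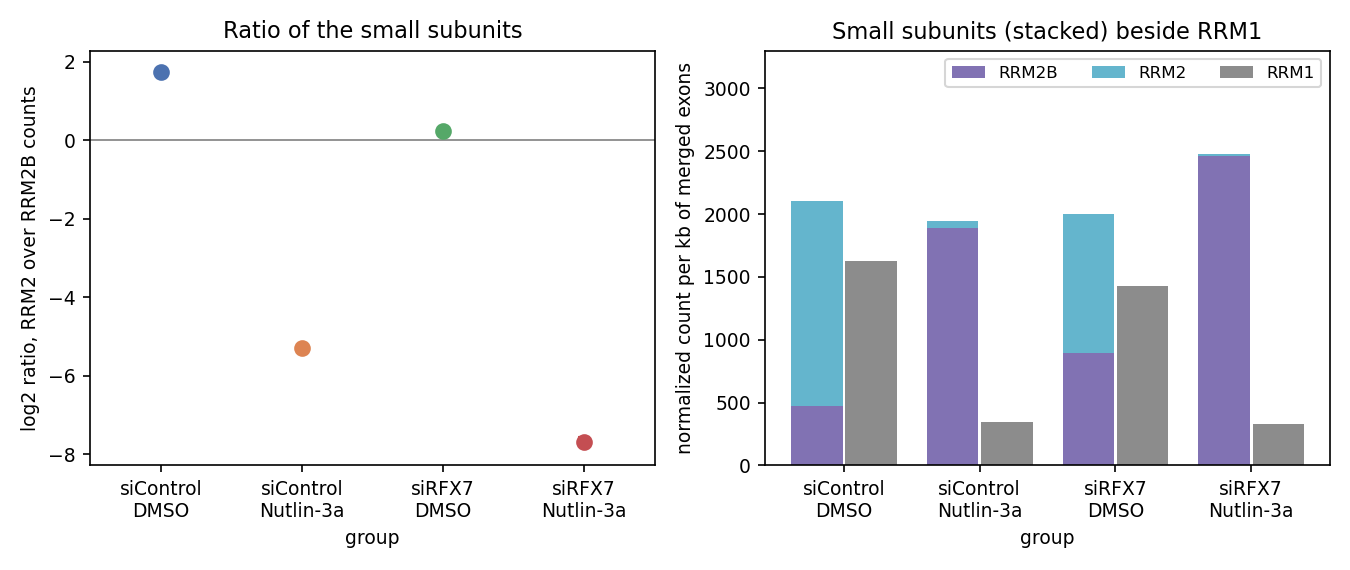
Left, log2 ratio of RRM2 to RRM2B mean normalized counts by group (bars: model standard error, n = 3); right, normalized counts per kb of merged exons, with RRM2B and RRM2 stacked beside RRM1. The ratio falls from 1.74 to -5.30 on the log2 scale in siControl and from 0.25 to -7.68 in siRFX7, while the stacked sum stays between 1943 and 2477 and RRM1 drops from 1630 to 343.8 in siControl and from 1430 to 328 in siRFX7.

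In the thymidylate branch, TYMS and TK1 both fell with Nutlin-3a but to different degrees. TYMS, thymidylate synthase (ENSG00000176890, chromosome 18 from 657604 to 673578, plus strand), averaged 9211 ± 276 normalized counts under siControl and 10239 ± 306 under siRFX7 in DMSO (model SE, n = 3), and 4969 ± 151 under siControl and 5805 ± 176 under siRFX7 in Nutlin-3a. It kept more of its level than any other gene of the 8 that fell, with log2 fold changes of -0.89 in siControl and -0.82 in siRFX7 (standard error 0.06 each, DESeq2 adjusted p 6.83e-46 and 3.53e-39) in the authors' deposited tables. Knockdown of RFX7 raised TYMS by 0.15 among DMSO cells (standard error 0.06, DESeq2 adjusted p 0.0441) and by 0.22 among Nutlin-3a cells (standard error 0.06, DESeq2 adjusted p 0.00186) in the authors' deposited tables. The DMSO call is lost at an adjusted p below 0.01.

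ENOSF1 lies on the other strand and shares 967 exon bases with TYMS, 39.1% of the TYMS exons, and how the counting used strand is not given in the sources used here. ENOSF1 averaged 1002 normalized counts under siControl and 749.6 under siRFX7 in DMSO, and 514.1 and 386.9 in Nutlin-3a. Its log2 fold changes with Nutlin-3a, -0.96 and -0.95, have the sign of those of TYMS, while with siRFX7 ENOSF1 fell, with values of -0.42 and -0.41, all called in the authors' deposited tables. Reads of the shared bases could be counted for either gene, and their part in the TYMS values was not tested.

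TK1, the cytosolic thymidine kinase (ENSG00000167900, chromosome 17 from 78174075 to 78187233, minus strand), averaged 10396 ± 480 normalized counts under siControl and 9331 ± 432 under siRFX7 in DMSO (model SE, n = 3), and 1039 ± 51.2 under siControl and 927.5 ± 46.0 under siRFX7 in Nutlin-3a. After RRM2 it had the steepest fall of the 8. Its log2 fold change with Nutlin-3a was -3.32 in siControl and -3.33 in siRFX7 (standard error 0.10 each, DESeq2 adjusted p 8.81e-253 and 1.08e-251) in the authors' deposited tables, about 10.0-fold in each. The interaction of TK1 was -0.01 with a 95% interval of -0.28 to 0.26 (z test adjusted p 0.993). With siRFX7 the interval ran from -0.34 to 0.03 among DMSO cells and from -0.36 to 0.03 among Nutlin-3a cells in the authors' deposited tables, and neither was called.

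DTYMK, thymidylate kinase (ENSG00000168393, chromosome 2 from 241675742 to 241686991, minus strand), averaged 2865 ± 164 normalized counts under siControl and 2500 ± 143 under siRFX7 in DMSO (model SE, n = 3), and 700.8 ± 42.3 under siControl and 616.4 ± 37.5 under siRFX7 in Nutlin-3a. Its implied spread between replicates, 9.91% to 10.5% of the mean, was the widest of the 8 except for RRM2 in the siRFX7 Nutlin-3a group. The Nutlin-3a log2 fold changes were -2.03 and -2.02 in siControl and siRFX7 (standard error 0.12 each, DESeq2 adjusted p 7.98e-63 and 2.07e-61) in the authors' deposited tables. siRFX7 gave -0.20 and -0.19 in DMSO and Nutlin-3a, neither called, in the authors' deposited tables.

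DUT, which removes dUTP before it can enter DNA (ENSG00000128951, chromosome 15 from 48331011 to 48343373, plus strand), averaged 2761 ± 82.8 normalized counts under siControl and 2218 ± 67.6 under siRFX7 in DMSO (model SE, n = 3), and 470.9 ± 18.2 under siControl and 419.1 ± 16.6 under siRFX7 in Nutlin-3a. The drug gave log2 fold changes of -2.55 under siControl and -2.40 under siRFX7 (standard error 0.07 each, DESeq2 adjusted p 4.22e-284 and 1.64e-241) in the authors' deposited tables. Knockdown of RFX7 lowered DUT among DMSO cells, with a value of -0.32 (standard error 0.06, DESeq2 adjusted p 3.53e-06), and gave -0.17 among Nutlin-3a cells (95% interval -0.32 to -0.01, DESeq2 adjusted p 0.103), in the authors' deposited tables. The interaction of DUT was 0.15 (95% interval -0.05 to 0.35, z test adjusted p 0.536), so the siRFX7 effect was not shown to differ between treatments.

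DCK, the deoxycytidine kinase that also activates nucleoside drugs such as gemcitabine (ENSG00000156136, chromosome 4 from 70992538 to 71030914, plus strand), averaged 1701 ± 65.5 normalized counts under siControl and 1249 ± 49.2 under siRFX7 in DMSO (model SE, n = 3), and 403 ± 18.5 under siControl and 290.6 ± 14.3 under siRFX7 in Nutlin-3a. The 4 group means are separate, with siRFX7 lower within each treatment. The drug gave DCK log2 fold changes of -2.08 under siControl and -2.10 under siRFX7 (standard error 0.09 each, DESeq2 adjusted p 2.46e-125 and 2.22e-116) in the authors' deposited tables. The knockdown lowered it among DMSO cells, by a value of -0.45 (standard error 0.08, DESeq2 adjusted p 2.98e-07), and among Nutlin-3a cells, by -0.47 (standard error 0.10, DESeq2 adjusted p 1.4e-05), in the authors' deposited tables. The interval of the DCK interaction was -0.27 to 0.22. MOB1B, on the same strand, shares 199 exon bases with DCK, 6.17% of the DCK exons, and their part in the DCK values was not tested.

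**Figure D3:**
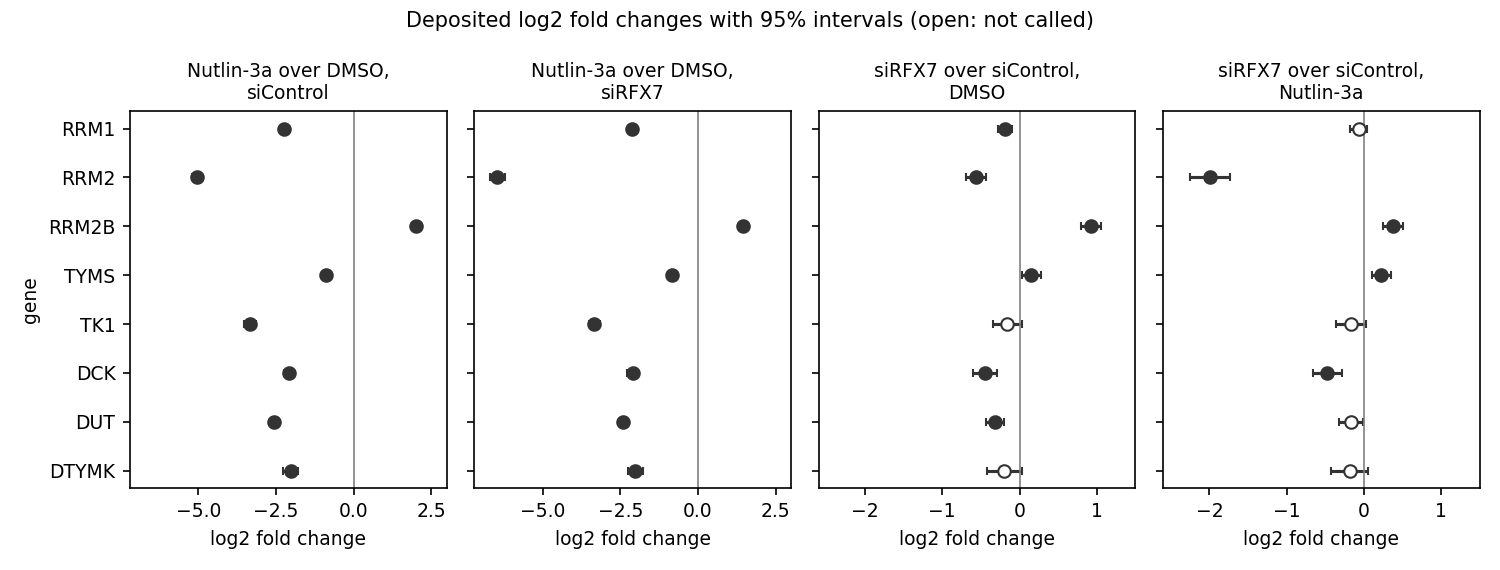
Log2 fold changes of the 8 genes in the 4 deposited comparisons, with 95% intervals; filled points passed an adjusted p of 0.05 and open points did not, and the right pair of panels has a narrower axis. Nutlin-3a lowers 7 genes and raises RRM2B under both siRNAs, and among the siRFX7 effects RRM2 in Nutlin-3a lies farthest from 0, at -2.00.

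Over the 8 genes, with calls made at adjusted p values under 0.05, Nutlin-3a raised 1 and lowered 7 with either siRNA in the authors' deposited tables. Of all 23195 genes, 43.2% were called under siControl, 22.0% higher and 21.2% lower, and 41.4% under siRFX7, 21.7% higher and 19.7% lower. The median log2 fold change of the 8 was -2.16 in siControl and -2.11 in siRFX7, beside 0.02 and -0.02 over all genes. siRFX7 raised 2 and lowered 4 in DMSO, and raised 2 and lowered 2 among Nutlin-3a cells, in the authors' deposited tables. Of the genes listed for DMSO, 29.0% were called, 13.5% higher and 15.5% lower, and of those listed for Nutlin-3a 28.6%, 15.0% higher and 13.6% lower. The balance over all genes depends on the scaling: with equal summed group means, siRFX7 raised 3391 and lowered 2262 genes in DMSO, against 2704 and 3107 as deposited, while the counts of the 8 were the same. With siRFX7 the medians of the 8 were -0.19 and -0.17, beside -0.0032 and 0.0022 over all genes.

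The interaction was called below 0 for 2 of the 8, RRM2 and RRM2B, and above 0 for 0. Of all genes, 6.20% were called, 2.92% below 0 and 3.28% above, or 677 and 760 genes. With equal summed group means these were 792 below and 583 above. The median interaction was 0.0019 for the 8 and 0.0034 over all genes. For RRM1, TYMS, TK1, DCK, DUT and DTYMK the estimates ran from -0.03 to 0.15, with intervals that all reach across 0 and extend no farther than -0.32 and 0.35. A difference in the Nutlin-3a response of those genes between siRNAs was not detectable at this precision.

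Interactions below 0 were also seen among other genes with steep responses. Of 28 protein-coding genes with a mean of at least 100 whose siControl response was lower than that of RRM2, 22 had an interaction called below 0 and 0 above, with a median of -1.32. Of the 149 whose siControl response was higher than that of RRM2B, 90 were called below 0 and 1 above, with a median of -0.64. These genes were picked by their siControl response, which is part of the interaction, so the counts describe them and test nothing.

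**Figure D4:**
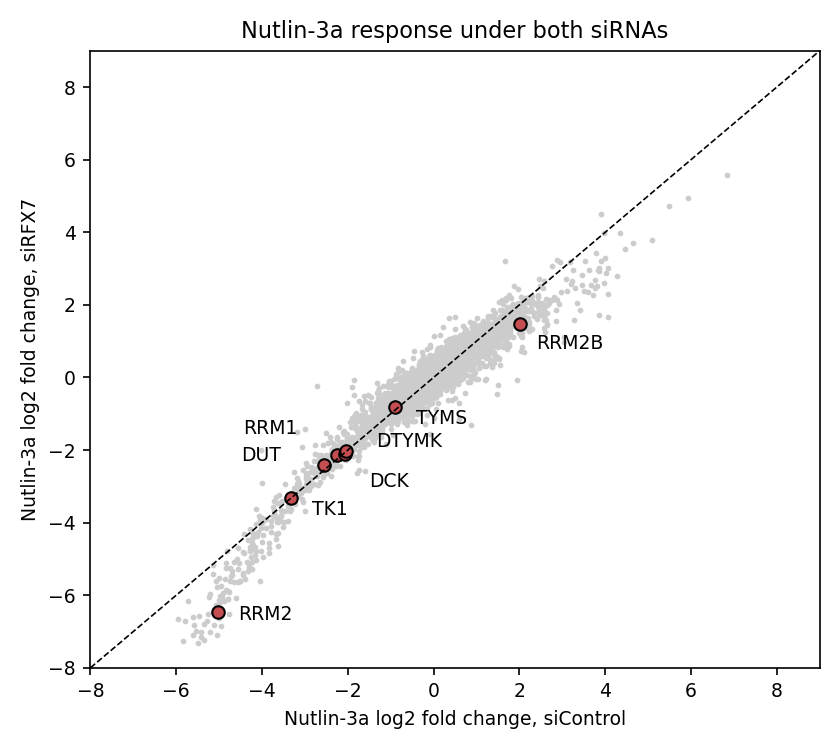
Nutlin-3a log2 fold change in siRFX7 against that in siControl for 10863 protein-coding genes averaging at least 100 normalized counts (grey) and the 8 genes (red); the dashed line marks equal responses. RRM2 lies below the line by 1.43 and RRM2B by 0.54, among other genes with responses of like size, and the other 6 lie within 0.15 of it.

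The 5 protein-coding genes whose 4 group means ran most like those of RRM2 were CENPA, ASPM, KIFC1, SHCBP1 and KIF18B. Likeness was measured as the Euclidean distance between mean-centred log2 group means over the 4 groups, among 10863 genes, and ran from 0.13 to 0.29 for these. CENPA, the centromeric histone H3 variant, averaged 764.6 and 570 normalized counts under siControl and siRFX7 in DMSO, and 23.7 and 5.72 in Nutlin-3a. In siRFX7 Nutlin-3a these genes had low means, from 5.72 for CENPA to 22.9 for KIFC1. The distances carry no error, so which genes rank nearest to RRM2 is uncertain. KIFC1 and KIF18B encode mitotic kinesins and ASPM a spindle pole protein. None of the other 7 genes came nearer to RRM2 than TK1, at 2.76.

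For RRM2B the nearest were MEGF6, PROCR, PGF, ZNF219 and APOBEC3C, at distances of 0.09 to 0.17. PROCR, the endothelial protein C receptor gene, averaged 966.7 and 1918 normalized counts under siControl and siRFX7 in DMSO, and 3732 and 5272 in Nutlin-3a. With a minimum mean of 1000, 3 of the 5 nearest genes were the same for RRM2 and 3 for RRM2B. Among the 8 genes themselves RRM1 and DTYMK were the closest pair, at 0.18, and RRM2 and RRM2B the farthest apart, at 7.74.

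Per kb of merged exon, TK1 stood highest in siControl DMSO at 5586 ± 258 normalized counts per kb, followed by TYMS at 3729 and by RRM2 and RRM1 at 1636 and 1630, which did not differ beyond their error. DTYMK, DUT, DCK and RRM2B followed at 1169, 751.5, 527 and 471.4. In siControl Nutlin-3a the order began with TYMS at 2012 ± 61.1 and RRM2B at 1893 ± 59.8, separated by 1.39 standard errors, and ended with RRM2 at 49.96. DUT at 128.2 and DCK at 124.9 did not differ beyond their error there. These errors do not cover the choice of length. With the longest protein-coding transcript as the length, that group had DUT at 219.3 and DCK at 148.4, and TYMS at 2990 and RRM2B at 2130.

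In siRFX7 DMSO, TK1 at 5014 and TYMS at 4145 led, RRM2 at 1106 and DTYMK at 1020 were separated by 1.22 standard errors, and DCK was last at 387. In siRFX7 Nutlin-3a, RRM2B at 2465 ± 77.7 and TYMS at 2350 ± 71.2 led and were separated by 1.09 standard errors, TK1 followed at 498.4, and RRM2 was last at 12.52 ± 0.98. With the longest protein-coding transcript as the length, TYMS stood above RRM2B in that group, at 3493 against 2773, so the order of those 2 rests on the length used. In siRFX7 DMSO that length put TYMS at 6161 above TK1 at 5551, and DTYMK at 2029 above RRM1 at 1942 and RRM2 at 1603. It also put DUT at 1033 above RRM2B at 1006 there, while with merged exons RRM2B at 894.2 stood above DUT at 603.8. In siControl DMSO it put DTYMK at 2326 above RRM1 at 2214, and in both Nutlin-3a groups DTYMK stood above RRM1. RRM2 was last in both Nutlin-3a groups under either length.

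Processed pseudogenes of RRM2 moved with their parent gene. RRM2P3 (chromosome X from 44309314 to 44310476) averaged 924.2 and 575.9 normalized counts under siControl and siRFX7 in DMSO, and 36.23 and 8.76 in Nutlin-3a. RRM2P2 (chromosome 1 from 161378707 to 161379358) averaged 178 and 102.1 among DMSO cells, and 6.75 and 1.01 among Nutlin-3a cells. Of the 50-base words of their GENCODE transcripts, 10.2% in RRM2P3 and 4.48% in RRM2P2 also occur in RRM2 transcripts. How reads with several matches were counted is not given in the sources used here, so the pseudogene values are uncertain. Adding both to RRM2 gave changes of the RRM2 to RRM2B log2 ratio within 1 standard error of those for RRM2 alone.

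Other genes of the pathway were read from 6 lists, whose counts stand against 22.0% of all genes called higher and 21.2% lower with Nutlin-3a under siControl, 21.7% and 19.7% under siRFX7, and 29.0% and 28.6% called in either direction with siRFX7 in DMSO and Nutlin-3a. Among 14 partners and controls of ribonucleotide reductase, Nutlin-3a raised 1 and lowered 8 under siControl, and raised 1 and lowered 7 under siRFX7, in the authors' deposited tables. The steepest falls of the 14 were those of E2F1, at -4.57 and -4.71, E2F2, at -4.06 and -3.83, and E2F8, a repressive E2F, at -3.20 and -2.78 (log2, siControl then siRFX7) in the authors' deposited tables. E2F factors control S-phase genes. The list also holds E2F3 and E2F4, which were not among these steepest falls. CCNF, cyclin F, which targets the RRM2 protein for degradation, had -2.79 and -2.54 in the authors' deposited tables. GLRX, a glutaredoxin that can reduce ribonucleotide reductase, was the gene that rose, with 0.62 and 0.48, in the authors' deposited tables. siRFX7 lowered 9 of the 14 in DMSO and 5 in Nutlin-3a and raised 0 in either, in the authors' deposited tables, among them TXNRD1, thioredoxin reductase, at -0.45 and -0.44. E2F1 fell with the knockdown, by values of -0.45 among DMSO cells and -0.59 among Nutlin-3a cells, in the authors' deposited tables, and had an interaction of -0.14 that was not called.

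Of 9 other thymidylate and folate genes, Nutlin-3a lowered 6 and raised 1 in siControl (all genes 21.2% and 22.0%), and lowered 5 and raised 0 under siRFX7 (19.7% and 21.7%), in the authors' deposited tables. GGH, a folate hydrolase, fell with log2 fold changes of -2.32 and -2.30, and SHMT1, cytosolic serine hydroxymethyltransferase, with -1.20 and -1.05, in the authors' deposited tables. Both fell further than TYMS under each siRNA by value, a difference between genes that was not tested. siRFX7 raised 2 and lowered 2 of the 9 in DMSO, and raised 4 and lowered 2 with Nutlin-3a present, in the authors' deposited tables. The knockdown raised the folate carrier SLC19A1 by 0.44 and 0.65 among DMSO and Nutlin-3a cells and lowered SHMT2, mitochondrial serine hydroxymethyltransferase, which had -0.78 and -0.57 in the authors' deposited tables.

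The 20 salvage kinases, phosphorylases and transporters were mixed. Nutlin-3a raised 7 and lowered 10 under siControl (all genes 22.0% and 21.2%), and raised 5 and lowered 6 under siRFX7 (21.7% and 19.7%), in the authors' deposited tables. UPP1, uridine phosphorylase, fell with log2 fold changes of -2.77 and -1.87, and HPRT1, the purine salvage enzyme, with -1.13 and -1.19, in the authors' deposited tables. ADA, adenosine deaminase, rose with values of 0.79 and 0.73 in the authors' deposited tables. siRFX7 raised 5 and lowered 6 of the 20 in DMSO, and raised 5 and lowered 3 with Nutlin-3a present, in the authors' deposited tables. With siRFX7, UPP1 fell with values of -1.82 and -0.93 among DMSO and Nutlin-3a cells, and CDA, cytidine deaminase, rose with 1.11 and 0.76, in the authors' deposited tables. The mitochondrial kinases TK2 and DGUOK were not called in any of the 4 comparisons, with siControl Nutlin-3a log2 fold changes of 0.0038 and 0.0496 in the authors' deposited table.

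Among 10 genes of dNTP breakdown and pool cleaning, Nutlin-3a raised 3 and lowered 6 under siControl and raised 2 and lowered 6 under siRFX7, in the authors' deposited tables. NUDT1, which removes oxidised purine triphosphates, fell with log2 fold changes of -1.87 and -1.90, and NT5M, a mitochondrial deoxyribonucleotidase, with -0.78 and -0.76, in the authors' deposited tables. SAMHD1, the dNTP triphosphohydrolase, had values of -0.22 and -0.26, both called, in the authors' deposited tables. The knockdown raised 4 and lowered 1 of the 10 among DMSO cells, and raised 4 and lowered 2 among Nutlin-3a cells, in the authors' deposited tables. Of 12 de novo purine genes, Nutlin-3a raised 1 and lowered 7 under siControl and raised 0 and lowered 7 in siRFX7, among them GMPS at -0.93 and -0.67 and PRPS1 at -0.78 and -0.68, in the authors' deposited tables. Of 5 de novo pyrimidine genes, Nutlin-3a raised 1, DHODH, and lowered 2 under each siRNA, and CAD, which starts the pathway, had log2 fold changes of -0.05 and -0.08 that were not called, in the authors' deposited tables. The share of pyrimidine genes called, 3 of 5, is near that of all genes, 43.2% and 41.4%. With siRFX7, 1 purine gene rose and 6 fell among DMSO cells and 3 rose and 3 fell among Nutlin-3a cells, while of the pyrimidine genes 0 rose and 1 fell, then 1 rose and 1 fell, in the authors' deposited tables. CAD was the pyrimidine gene that fell in both, with -0.28 and -0.31, in the authors' deposited tables.

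In the authors' deposited table for siControl, the Nutlin-3a medians of the 6 lists ran from -0.58 for the folate list to -0.08 for the pyrimidine list, beside -2.16 for the 8 dNTP supply genes and 0.02 over all genes. In siRFX7 they ran from -0.37 to -0.05 in the authors' deposited table, beside -2.11 and -0.02.

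**Figure D5:**
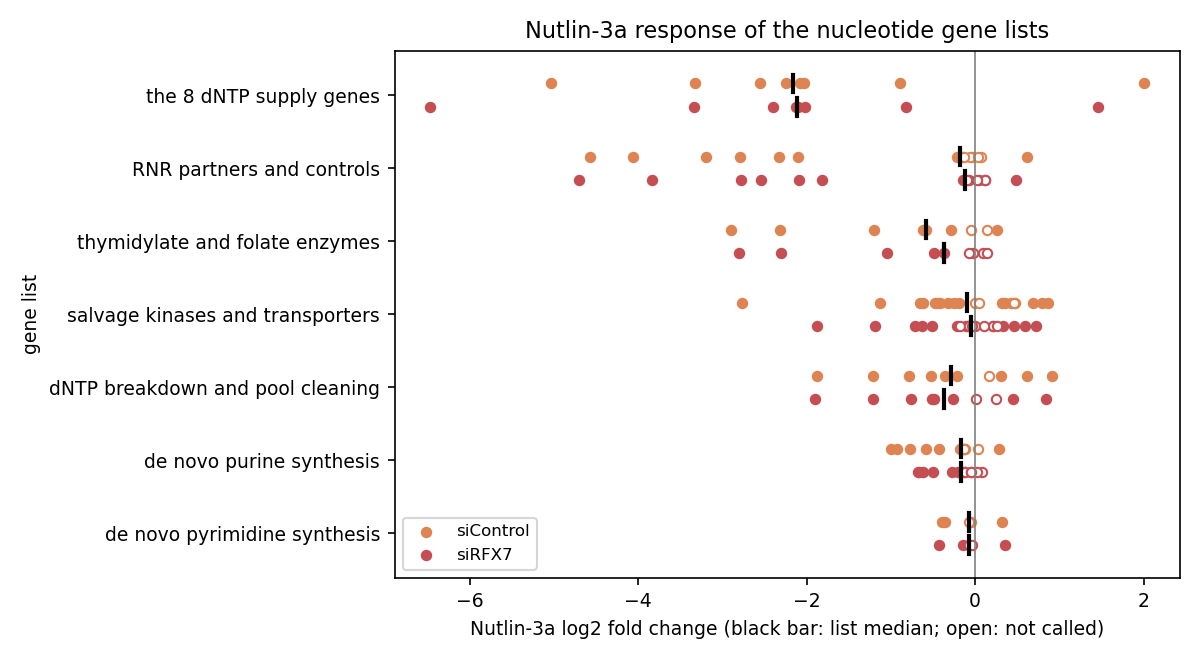
Nutlin-3a log2 fold change of each gene in the 8 dNTP supply genes and in 6 further nucleotide lists, in siControl (orange) and siRFX7 (red); filled points passed an adjusted p of 0.05, open points did not, and black bars are list medians. The medians of the 8 genes, -2.16 and -2.11, lie left of those of the other lists, which run from -0.58 to -0.05.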

How the data were processed

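Gene expression was measured by polyA RNA sequencing in 12 libraries. Per the submitters' processing notes, tools included Trimmomatic 0.39, cutadapt 2.10, featureCounts 1.6.5 and DESeq2 1.20.0 with build hg38; the aligner and strand setting are not given in the sources used here. The values are 4 DESeq2 tables that the authors deposited. Mean normalized counts are a signal that the authors made by dividing counts by size factors. Fold changes and standard errors are log2 values from the authors' DESeq2 fit, per the file headers. The Wald statistic, a score, was computed by the authors as fold change over error, per the file headers. The deposited p-values are two-sided Wald p-values with Benjamini-Hochberg adjustment by the authors. Values per library were not used here, so the planned replicate alternatives were not run.

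Fold changes of the knockdown tables were taken with siControl as the denominator, because the log2 fold changes then close to within 1.27e-14 over 19393 genes (median error 0.374 otherwise). Group means share the mean normalized count out by the deposited fold changes. Their model errors and replicate spreads come from the dispersion solved from the standard errors, taking size factors as 1. Levels per kb use merged exons of GENCODE 29. Genes were called at an adjusted p below 0.05. The interaction used a two-sided z test with Benjamini-Hochberg adjustment over 23195 genes, which takes standard errors as known. The z test was also run on data simulated with the deposited standard errors, which cannot show whether those errors are right. Python 3.11.15, pandas 2.3.3 and scipy 1.17.1 were used.

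The members and lists were chosen with earlier results of these data known. Named genes are the 8 genes, RFX7, MDM2 and CDKN1A as label checks, pseudogenes and overlapping genes, up to 3 called genes in each direction of a list and comparison, and the 5 genes nearest to RRM2 and RRM2B; CCNF, SAMHD1, TK2 and DGUOK were named after their values were seen. Single values of a few listed genes are not reported here; list counts and medians include them. Alternatives changed the threshold, minimum fold, low-count filter, scaling and transcript length.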

Additional observations from a re-analysis of the deposited data

Results flagged for a closer look

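In the z test of the interaction, the response to Nutlin-3a differed with the siRNA for RRM2 at -1.43 and RRM2B at -0.54 among the 8 genes. CDKN1A, the p21 gene used as a check of p53 activation, had an interaction of -0.93 (standard error 0.13), and MDM2, the other such check, one of -0.69 (standard error 0.09). In the pathway lists the difference was above 0 for UPP1 at 0.90 (adjusted p 0.000245), NT5E at 0.68, PRPS2 at 0.38, CHEK1 at 0.29, GMPS at 0.26, SHMT2 at 0.22 and UCK2 at 0.21. It was below 0 for NUDT18 at -0.67, TYMP at -0.65 and IMPDH2 at -0.34. NT5E, an ecto-nucleotidase, rose by 0.84 with the drug under siRFX7 in the authors' deposited table, and had a value of 0.17 under siControl that was not called.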

How the results depend on the processing

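No paired analysis was possible because the deposited tables hold statistics over groups and no values per library; for the same reason no replicate could be left out. The counts of the 8 genes called with Nutlin-3a were the same under all 4 alternatives that were run. With a minimum absolute log2 fold change of 0.58, siRFX7 in DMSO raised 1 and lowered 0 of the 8 (2 and 4 without it), siRFX7 in Nutlin-3a raised 0 and lowered 1 (2 and 2), and the interaction was below 0 for 1, RRM2 (2). At an adjusted p below 0.01, siRFX7 in DMSO raised 1, since TYMS was lost. Scaling to equal summed group means moved log2 fold changes by 0.06 at most and reversed 1 value, the uncalled interaction of DTYMK, to -0.0184 from 0.0116. The minimum fold moved the counts over all genes by more than 1.5 times: to 2585 higher and 2613 lower for the drug under siControl, 2407 and 2423 under siRFX7, 1044 and 503 with siRFX7 in DMSO, 801 and 681 in Nutlin-3a, and 185 and 359 for the interaction. At an adjusted p below 0.01 the interaction was called for 446 genes above 0 and 417 below. With a minimum mean normalized count of 10, and under equal scaling, the counts of the 8 genes called were the same in all 5 comparisons, while counts over all genes moved by 1.5 times or less. Equal scaling turned their balance for 4 of the 5: to 4824 higher and 5159 lower (5107 and 4915 as deposited) for the drug under siControl, 4434 and 5252 (5022 and 4579) under siRFX7, 3391 and 2262 (2704 and 3107) for siRFX7 in DMSO, and 583 and 792 (760 and 677) for the interaction. Depth limits RRM2 most in siRFX7 Nutlin-3a: at 66.65 normalized counts the modelled spread is 13.5% of the mean, against 5.69% from dispersion alone.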
